A study of Mus musculus with 4 samples.

Results

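Kisspeptin, neurokinin B and dynorphin are made together in a class of arcuate neurons known by the initials of the peptides as KNDy cells. The 8 genes described here, Kiss1, Tac2, Tacr3, Pdyn, Nr5a2, Npr3, Nhlh2 and Inhbb, are genes of these cells, and every probe that the platform annotation assigns to them was taken. This gave 12 of the 25697 probes, for 8 of 16593 named genes. The RNA, amplified before labelling, was bound to tagged ribosomes and came from punches of the mediobasal hypothalamus of Pomc-Cre mice, in which Cre recombinase is driven by Pomc, the gene of the precursor of the melanocortin peptides. In the lineage group (Pomc-Cre:RiboTag, n = 2 arrays) the mice also carried the RiboTag allele. Cre then switches a hemagglutinin-tagged ribosomal protein on for good, so that cells which once expressed Pomc and their descendants are tagged. In the virus-injected group (Pomc-cre AAV-DIO-RiboTag, n = 2 arrays) Pomc-Cre mice had received the tag on a Cre-dependent adeno-associated virus, and only infected cells that hold Cre after the injection can carry it. The labels call this group adult POMC neurons. All 4 arrays share the Pomc-Cre driver and the immunoprecipitation. Age, sex and hormonal state of the mice, and whether an array held 1 animal or a pool, are not stated in the labels. Any p-value below thus rests on the spread between arrays, part or all of which may be technical. The comparison asks whether KNDy transcripts are carried by cells of the Pomc lineage that are not tagged when the tag arrives in adulthood. Time of tagging and way of delivery (allele or injected virus) differ together between the groups and cannot be told apart.

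KNDy neurons act upstream of the neurons that release gonadotropin-releasing hormone. Kisspeptin excites those neurons through the receptor KISS1R. Neurokinin B acts back on the KNDy cells through its receptor NK3R, the product of Tacr3, and dynorphin restrains them through the kappa opioid receptor. The cells also express receptors for sex steroids, and estradiol lowers Kiss1 and Tac2 in the rodent arcuate nucleus.

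Between 10982 and 12306 probes were detected per array, and each member value rested on 27 to 57 beads. A probe was called detected at a detection p-value under 0.05, and the dimmest probe so called had an intensity of 553 to 644, depending on the array. Levels below are background-corrected, quantile-normalized log2 intensities, and a difference is always the lineage mean minus the virus-injected mean. Of the 12 member probes, 11 were detected on at least 2 arrays and were tested, and the dimmest of the 3 Nr5a2 probes was not. The limma fit of 12266 probes called 0 probes at an adjusted p under 0.05 (0% of all probes), so 0 of the 8 members passed. At an unadjusted p under 0.05 it gave 1275 probes, 10.4% of those tested. The number of arrays limits the precision: 2 against 2 arrays allow no exact two-sided permutation p below 0.333.

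The neuropeptide genes did not move as one. Kiss1 and Tac2 gave larger signals on both lineage arrays, with the virus-injected arrays at or near background, whereas Pdyn was bright on all 4 arrays and nearly level. Fewer cells of a type and less RNA per cell cannot be told apart in such pooled RNA.

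Kiss1, the gene of kisspeptin, had log2 intensities of 6.71 and 7.41 on the virus-injected arrays and of 9.65 and 9.06 on the lineage arrays. The groups did not overlap, and the second virus-injected array was the only one of its group on which the probe was detected. The group means were 7.06 ± 0.50 (SD, n = 2) and 9.35 ± 0.42, a measured 4.90-fold difference (log2 2.29, SE 0.33, 95% interval 1.42 to 3.17, limma adjusted p = 0.295 over all probes, unadjusted p = 0.00133). The virus-injected mean lay below the dimmest detected probe, so the size of the fold rests on the background correction: without it the log2 difference was 1.01. In the deposited intensities the Kiss1 probe read 486 ± 19.1 (standard error over beads) and 589 ± 30.6 against 1184 ± 36.7 and 973 ± 36.4. Both lineage intensities of Kiss1 exceeded both virus-injected ones, and the means stood in a ratio of 2.01.

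Tac2, the gene of neurokinin B, was at 6.58 and 6.79 on the virus-injected arrays, where it was not detected, and at 8.88 and 9.12 on the lineage arrays. After background correction the lineage signal was at least 2.98-fold higher, a bound set against the dimmest detected probes (means 8.998 ± 0.17 and 6.68 ± 0.15, SD, n = 2; log2 difference 2.31, SE 0.18, limma adjusted p = 0.177). Its deposited intensities were 466 ± 21.8 and 513 ± 20.2 against 857 ± 30.6 and 994 ± 36.6, with the standard error over beads. These stood in a ratio of 1.89, and without background correction the log2 difference was 0.94, both below the bound. The Tac2 groups were separated by more than either group spanned.

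Pdyn, the gene of prodynorphin, showed log2 intensities of 13.39 and 13.52 on the virus-injected arrays and 13.70 and 13.65 on the lineage arrays. The groups just failed to overlap, and the difference was 0.22 (SE 0.15, 95% interval -0.18 to 0.61, limma adjusted p = 0.649). A dimmer Pdyn probe gave 9.69 and 9.52 against 10.03 and 9.72, a difference of 0.27 (95% interval -0.21 to 0.76, adjusted p = 0.644). Within arrays the ratio of Tac2 to Pdyn shifted by 2.09 on the log2 scale (SE 0.15, unmoderated, n = 2 per group), and that of Kiss1 to Pdyn by 2.08 (SE 0.40). The lineage arrays lay above the virus-injected arrays in both ratios. The virus-injected readings of Tac2, and 1 of those of Kiss1, were at background, so the sizes of these shifts depend on its correction.

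**Figure D1:**
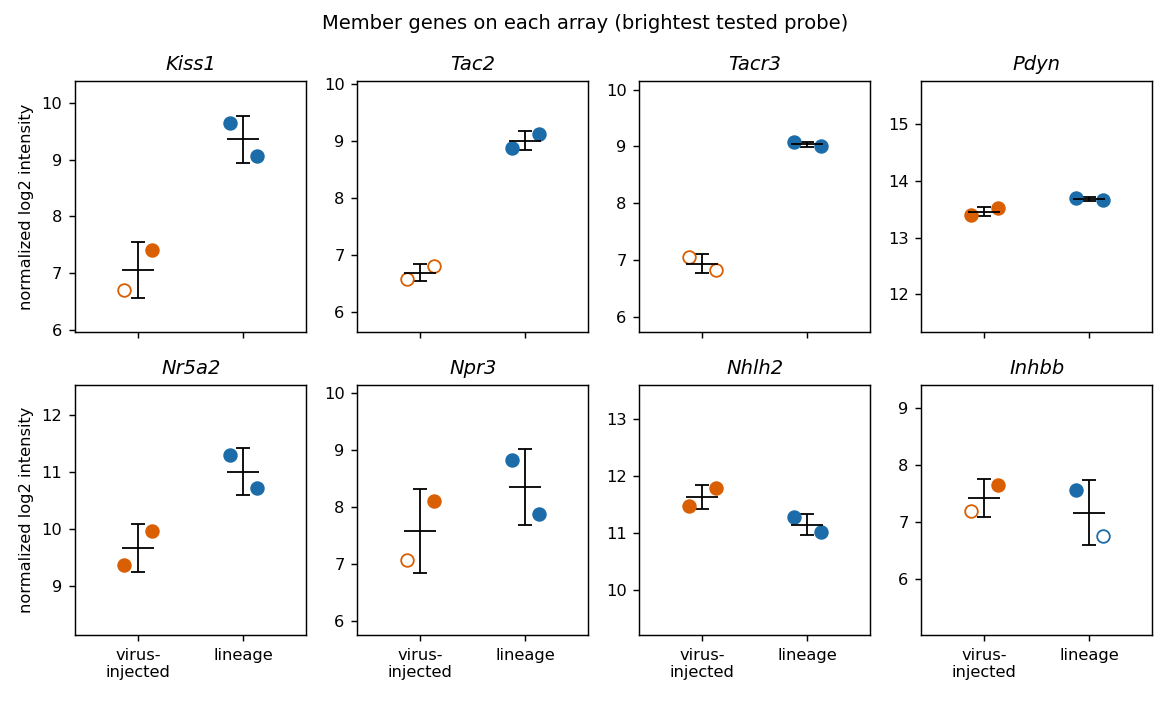
Normalized log2 intensity of the brightest tested probe of each member gene, with a vertical axis of equal span in every panel. Points are single arrays (filled, detected; open, not detected), and bars are the group mean ± SD (n = 2). The lineage arrays stand above the virus-injected arrays for Kiss1, Tac2, Tacr3 and Nr5a2, while Pdyn differs by 0.22 and the groups of Npr3 and Inhbb overlap.

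The sequences just upstream of the transcription start are shown for the 3 genes of largest difference, Kiss1, Tac2 and Tacr3, and for Pdyn, which was nearly level. They are the 250 bases before the RefSeq start (GRCm38.p6; all 8 members had an entry, 10 in total). Capitals mark the E-box, CANNTG, to which basic helix-loop-helix factors such as the product of Nhlh2 bind, and AGGTCA, the half-site of many nuclear receptors, among them those of the estrogen and NR5A families. Both strands were searched and no matches overlapped. The Kiss1 stretch is chr1:133326962-133327211 (plus strand), that of Tac2 chr10:127724228-127724477 (plus), that of Tacr3 chr3:134828757-134829006 (plus) and that of Pdyn chr2:129699939-129700188 (minus).
Kiss1: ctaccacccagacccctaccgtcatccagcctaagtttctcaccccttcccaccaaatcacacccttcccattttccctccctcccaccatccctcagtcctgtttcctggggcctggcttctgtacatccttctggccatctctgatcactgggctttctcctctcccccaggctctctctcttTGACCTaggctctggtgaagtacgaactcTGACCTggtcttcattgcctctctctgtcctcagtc
Tac2: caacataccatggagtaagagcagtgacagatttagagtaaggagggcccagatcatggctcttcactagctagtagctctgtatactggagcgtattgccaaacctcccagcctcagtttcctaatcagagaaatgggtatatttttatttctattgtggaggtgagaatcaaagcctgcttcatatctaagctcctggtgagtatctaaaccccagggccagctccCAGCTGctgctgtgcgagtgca
Tacr3: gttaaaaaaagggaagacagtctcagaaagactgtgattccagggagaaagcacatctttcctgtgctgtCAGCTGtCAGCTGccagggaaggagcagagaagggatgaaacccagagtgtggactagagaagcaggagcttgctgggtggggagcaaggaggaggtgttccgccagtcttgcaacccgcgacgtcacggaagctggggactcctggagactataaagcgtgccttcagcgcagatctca
Pdyn: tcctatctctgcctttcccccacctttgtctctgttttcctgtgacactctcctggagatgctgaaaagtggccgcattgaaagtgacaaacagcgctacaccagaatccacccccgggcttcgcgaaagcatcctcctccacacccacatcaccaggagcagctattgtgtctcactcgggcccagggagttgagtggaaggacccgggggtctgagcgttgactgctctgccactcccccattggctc

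The Kiss1 stretch held 2 half-sites, 65 and 36 bases before the start, both on the reverse strand, and 0 E-boxes. Tac2 held 1 E-box, 22 bases before the start, and Tacr3 held 2, at 180 and 173 bases, all 3 spelled CAGCTG. Neither Pdyn entry held either motif. Over the 10 member entries, 6 had an E-box and 2 a half-site, against 66.2% and 14% of 32851 promoters. These are matches of letters in a short window and say nothing about binding.

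Among the receptors, Tacr3 was measured by a pair of probes. The brighter was at 7.06 and 6.83 on the virus-injected arrays, where it was not detected, and at 9.07 and 9.004 on the lineage arrays. After background correction the lineage level of Tacr3 was at least 3.06-fold higher (means 9.04 ± 0.05 and 6.94 ± 0.17, SD, n = 2; log2 difference 2.09, SE 0.16, limma adjusted p = 0.177). A second Tacr3 probe likewise went undetected in the virus-injected group (6.48 and 6.62) and was detected in the lineage group (8.26 and 8.02), with a bound of at least 1.64-fold higher (measured difference 1.59, SE 0.17, adjusted p = 0.295). The deposited intensities stood in a ratio of 1.78 for the brighter probe and 1.48 for the second, each below its bound. Without background correction the difference of the brighter probe was 0.86. Tac2 and Tacr3 entered the test only because both lineage arrays detected them, which 68 of 8360 genes (0.813%) did with both virus-injected arrays at background. Npr3, the clearance receptor that takes up natriuretic peptides, was at 7.06 and 8.10 on the virus-injected arrays and 8.83 and 7.88 on the lineage arrays. Its groups overlapped (difference 0.77, SE 0.48, 95% interval -0.50 to 2.05, limma adjusted p = 0.629), and leaving out 1 array moved the value to between 0.26 (without virus-injected replicate 1) and 1.29 (without virus-injected replicate 2); it was 0.29 without lineage replicate 1 and 1.25 without lineage replicate 2.

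**Figure D2:**
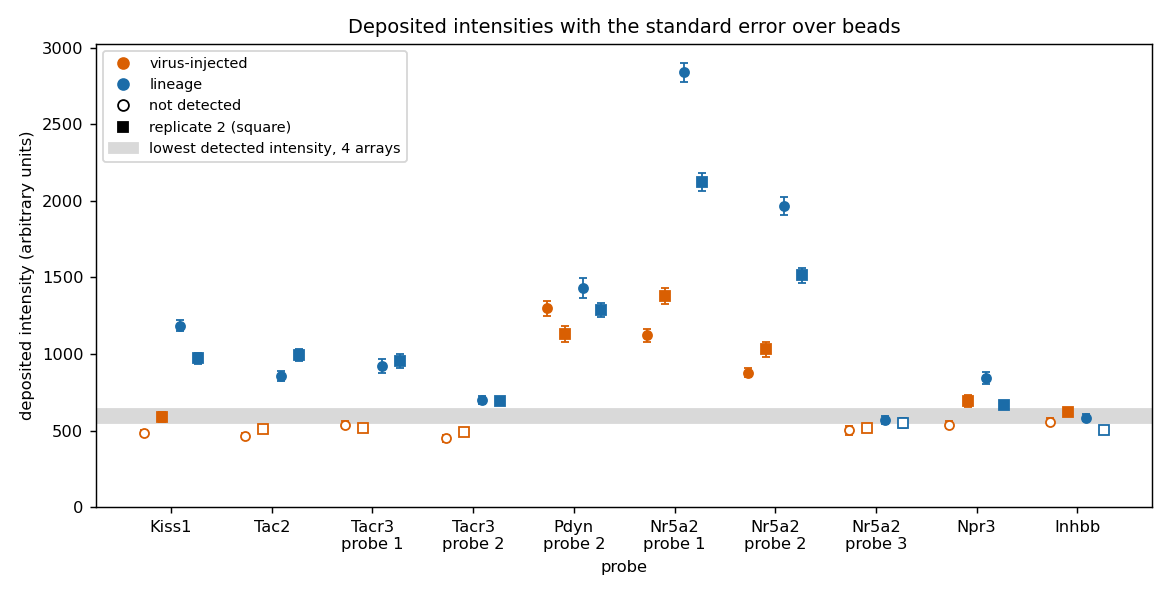
Deposited intensity (arbitrary units, linear axis) of the 10 member probes other than the bright Pdyn probe and Nhlh2, with bars for the standard error over beads, circles for replicate 1, squares for replicate 2 and open symbols where a probe was not detected. The grey band spans the lowest detected intensity of the 4 arrays, 553 to 644. The virus-injected values of Kiss1, Tac2 and Tacr3 lie at or below the band and their lineage values above it.

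The transcription factor genes went different ways. Nr5a2, which encodes the nuclear receptor LRH-1, was detected on all 4 arrays at 9.37 and 9.97 in the virus-injected group and 11.30 and 10.71 in the lineage group. The groups did not overlap, and the means of 9.67 ± 0.42 and 11.01 ± 0.41 (SD, n = 2) differed 2.53-fold (log2 1.34, SE 0.31, 95% interval 0.53 to 2.15, limma adjusted p = 0.348). A second Nr5a2 probe, at 8.75 and 9.30 against 10.65 and 10.07, gave the same difference of 1.34 (SE 0.30, adjusted p = 0.330). The third was detected on 1 of 4 arrays, a lineage array, at 7.47. Nhlh2, a neuronal helix-loop-helix factor whose loss in mice causes obesity and hypogonadism, was at 11.47 and 11.78 on the virus-injected arrays and 11.27 and 11.01 on the lineage arrays. Here the lineage arrays were the dimmer ones, without overlap (difference -0.48, SE 0.20, 95% interval -0.996 to 0.03, limma adjusted p = 0.497).

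Inhbb encodes the beta B subunit that inhibin B and activin B share. It stayed near background throughout, at 7.19 and 7.66 against 7.57 and 6.76, and was detected on 1 array of each group. The groups overlapped (difference -0.26, SE 0.34, 95% interval -1.15 to 0.63, limma adjusted p = 0.828), and the sign turned without lineage replicate 2 (0.15).

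Counted over the 8 genes by their brightest tested probe, 4 (Kiss1, Tac2, Tacr3 and Nr5a2) had an unadjusted p under 0.05 with the larger mean in the lineage group, against 4.41% of all genes, and 0 had one with the smaller mean, against 5.87%. The same 4 differed by at least 1 on the log2 scale, as did 0.742% of genes in that direction, and 0 members differed as far the other way, against 1.26% of genes. For 5 genes both lineage values lay above both virus-injected values (21.5% of all genes), and for 1, Nhlh2, both lay below (22.7%). Tac2 and Tacr3 entered the test through the lineage arrays alone and are in each of these counts of higher genes. The median difference was 1.06 over the members and -0.0064 over the 8360 genes. The members were chosen with earlier results of these data known, and these counts describe them only. With the order of arrays within groups taken alone, 6 of 8 members had the first virus-injected array below the second and the first lineage array above the second, as did 24.4% of all genes. Tac2 and Tacr3 were the exceptions.

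**Figure D3:**
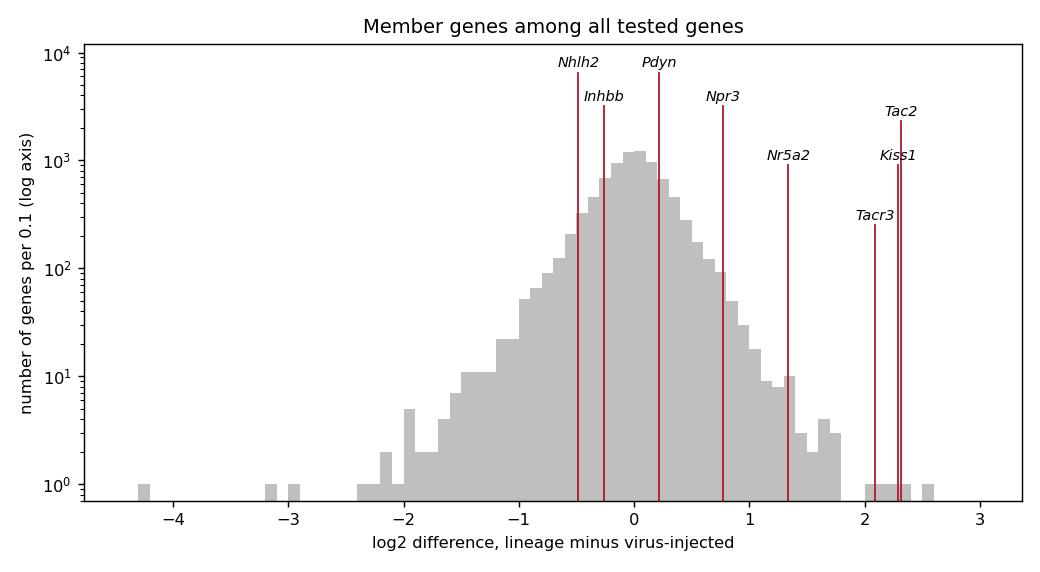
Number of genes (log axis, bins of 0.1) by log2 difference between the lineage and virus-injected means for the 8360 tested genes, with vertical lines at the 8 members. Kiss1, Tac2 and Tacr3 lie between 2.09 and 2.31, at the right end, Nr5a2 at 1.34, and Pdyn, Nhlh2 and Inhbb within the bulk; differences of genes at background in 1 group, such as Tac2, are measured values and not bounds.

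Pomc, which marks the targeted neurons, was bright on all arrays, at 12.09 and 12.25 in the virus-injected group and 12.75 and 12.90 in the lineage group (difference 0.65, limma adjusted p = 0.369, unadjusted p = 0.0112). In a POMC neuron list, 6 of 7 tested genes had the larger lineage mean, against 49.2% of all genes. Of these, 2 (Pomc and Pcsk1) had an unadjusted p under 0.05, against 4.41%. Differences in the list ran from -0.064 (Cartpt) to 0.98 (Pcsk1). The ratio of Tac2 to Pomc within arrays shifted by 1.66 (SE 0.05, unmoderated, n = 2 per group) and that of Kiss1 to Pomc by 1.64 (SE 0.46), with the same limit at background. Npy, a gene of the neighbouring AgRP neurons, was at 9.47 and 9.46 against 12.14 and 11.995. Agrp itself had no named probe. All 7 tested genes of the AgRP neuron list had the larger mean in the lineage group, against 49.2% of all genes, and 4 had an unadjusted p under 0.05, against 4.41%. One of the 4, Corin, entered the test through the lineage arrays alone. The summed linear signal of the 7 genes was 10477 to 10974 on the virus-injected arrays and 17730 to 19217 on the lineage arrays. This sum is weighted to bright genes such as Asb4 (difference 0.23), while Npy had the largest difference of the 7 (2.60).

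Neurons outside the arcuate nucleus can also hold dynorphin. Vasopressin neurons of rodents make it, and Avp was at 12.11 and 12.91 on the virus-injected arrays against 8.48 and 8.08 on the lineage arrays, so that the ratio of Pdyn to Avp shifted by 4.45 (SE 0.38, unmoderated, n = 2 per group). A list of 9 markers of other neurons held Avp, Oxt, Hcrt, Nr5a1, Pmch, Hdc, Trh, Foxb1 and Ppp1r17. It was not confined to dynorphin neurons, and whether the marked cells hold dynorphin was not measured. Of the 9 markers, 8 were tested and 6 had an unadjusted p under 0.05 with the smaller mean in the lineage group, against 5.87% of all genes. Pmch among the 6 entered the test through the virus-injected arrays alone. The summed linear signal of the 8 tested markers was 12401 to 15099 in the virus-injected group and 2803 to 3033 in the lineage group. Hcrt and Pmch were at background on both lineage arrays. The part of these neurons in the level of Pdyn was not tested. Of the glial lists, 5 of 5 tested astrocyte genes had the smaller mean in the lineage group (summed signal 6416 to 6473 against 8166 to 9075), as did 5 of 5 oligodendrocyte genes (3326 to 3892 against 5257 to 5673). The smaller mean was found in 50.8% of all genes. In each list 2 of the 5 had an unadjusted p under 0.05, against 5.87% of all genes in that direction. The part of these cells in the member values was not tested.

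Related genes were read from 9 lists. Of 94 listed genes 79 had a named probe and 46 were tested; 0 passed the adjusted threshold, 6 had an unadjusted p under 0.05 with the larger lineage mean (13% of the 46, against 4.41% of all genes) and 7 with the smaller (15.2%, against 5.87%). Corin among the 6, and Tacr1 and Hmx3 among the 7, entered the test through the brighter group alone. The median difference was 0.15.

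Of the 3 tested tachykinin genes besides the members, 2 had an unadjusted p under 0.05 with the smaller lineage mean, against 5.87% of all genes. With the larger mean there were 0, against 4.41%. Tacr1 among the 2 entered the test through the virus-injected arrays alone. Tac1, which encodes substance P, was at 10.36 and 10.09 on the virus-injected arrays and 9.23 and 9.08 on the lineage arrays (difference -1.07, SE 0.17, limma adjusted p = 0.295). Tacr1, the substance P receptor gene, was detected on both virus-injected arrays (7.78 and 8.59) and on neither lineage array, at least 1.57-fold lower there after background correction. Rgs4, a regulator of G protein signalling, differed by -0.024, and Tacr2 was not detected on any array.

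Among kisspeptin and gonadotropin-related genes, Kiss1r, the kisspeptin receptor gene, was not detected on any array. Npffr2, a receptor for RFamide peptides, differed by 0.0031 and the imprinted gene Dlk1 by 0.23, and neither reached an unadjusted p under 0.05. In the opioid list the receptor genes Oprk1, which encodes the kappa receptor for dynorphin, and Oprd1 were not detected on any array. Pcsk1, a convertase that cleaves prohormones, was at 8.46 and 8.83 against 9.66 and 9.59 (difference 0.98, SE 0.19, limma adjusted p = 0.303). Pcsk1 did not pass after adjustment. The other named genes of peptide production did not reach an unadjusted p under 0.05, with Pnoc (nociceptin) at 0.53, Scg5 at 0.15 and the amidating enzyme Pam at -0.23.

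In the list of sex steroid receptors and their partners, 5 of 5 tested genes had the larger mean in the lineage group, against 49.2% of all genes. Of the 5, 1 had an unadjusted p under 0.05, against 4.41% of all genes. Esr1, the gene of estrogen receptor alpha, was at 10.70 and 10.65 against 11.34 and 11.05 (difference 0.52, SE 0.17, limma adjusted p = 0.437), but a second Esr1 probe differed by 0.03. Pgr, the progesterone receptor gene, differed by 0.21, Greb1, an estrogen-responsive gene, by 0.49, and the coactivators Ncoa1 and Ncoa2 by 0.11 and 0.03. A second Ncoa2 probe went the other way, at -0.55, so the count of 5 of 5 depends on the probe chosen. Esr2 was not detected on any array. In the NR5A list, Nr5a1, the paralog of Nr5a2 that marks the ventromedial nucleus, was at 7.77 and 7.67 against 7.79 and 8.09 (difference 0.22), and Nr0b1, a corepressor of NR5A receptors, differed by 0.42 with 1 array detected in each group.

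Of the natriuretic peptide genes around Npr3, Corin, a protease that activates natriuretic peptides and a gene of AgRP neurons, was detected only on the lineage arrays. After background correction Corin was at least 1.603-fold higher there. The kinase gene Prkg2 was at 8.95 and 9.28 against 8.48 and 8.43 (difference -0.66), Prkg1 differed by -0.16 and the receptor gene Npr2 by -0.25. Nppc, the ligand gene of the C type, was detected on 1 array of each group, and Nppa and Npr1 on none. Around Inhbb, the activin receptor gene Acvr1c was at 8.94 and 8.30 against 10.39 and 10.32 (difference 1.74, SE 0.26, limma adjusted p = 0.295), without overlap. Acvr1c is also in the AgRP neuron list and was counted there too. Other activin receptors and signal carriers did not reach an unadjusted p under 0.05: Acvr1b lay at -0.089, Acvr2a at 0.41, Acvr2b at -0.22, Acvr1 at 0.24, Tgfbr3 at 0.33 (0.54 on a second probe, unadjusted p = 0.0370) and Smad2 at 0.39. Inha was detected on 1 virus-injected array, Fst, which encodes the activin-binding follistatin, on 1 lineage array, and Inhba on none.

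Of the 6 tested genes in the helix-loop-helix list around Nhlh2, 4 had the smaller mean in the lineage group, as did 50.8% of all genes, and 2 the larger. Of the 4, 2 had an unadjusted p under 0.05, against 5.87% of all genes. Tcf12, with the larger mean on its brightest probe (0.23), differed by -0.59 on a second probe (limma unadjusted p = 0.0204). Neurod1, a neuronal differentiation factor, was at 9.18 and 9.57 against 8.07 and 8.30 (difference -1.19, SE 0.21, limma adjusted p = 0.303), and Id2, an inhibitor of such factors, at 10.05 and 10.20 against 8.96 and 9.11 (difference -1.09, SE 0.16, adjusted p = 0.295). Id4 lay at -0.63 and did not reach an unadjusted p under 0.05, and Nhlh1, the paralog of Nhlh2, was not detected on any array. Of other arcuate genes, the calcitonin receptor gene Calcr was at 8.47 and 8.29 against 9.78 and 9.65 (difference 1.34, SE 0.16, adjusted p = 0.295; 1.04 and 0.81 on the other probes, both with the virus-injected arrays at background). Rxfp1, a relaxin receptor gene, was at 9.15 and 9.37 against 10.11 and 10.12 (difference 0.85, adjusted p = 0.303). Gal, the galanin gene, was at 11.49 and 11.85 against 11.12 and 11.15 (difference -0.54). Hmx3, named after its values were seen, lay at -0.39 with both lineage arrays at background.

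**Figure D4:**
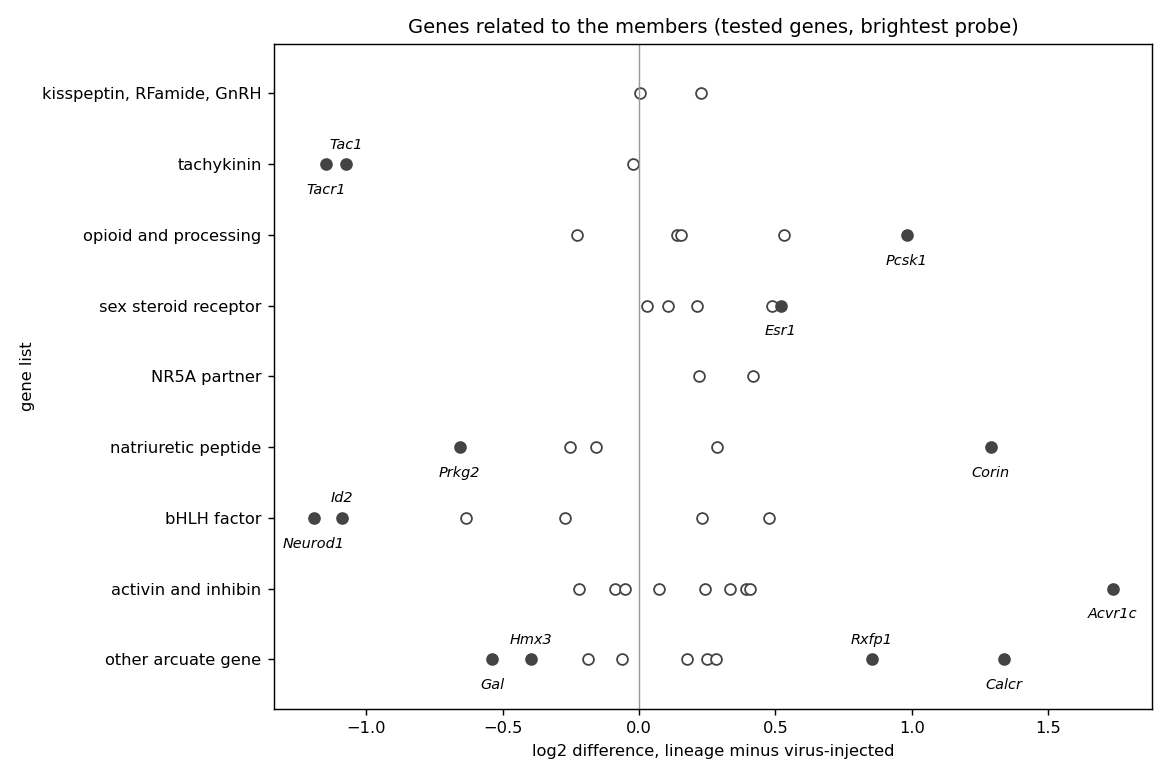
Log2 difference between the lineage and virus-injected means of the 46 tested genes in 9 lists of related genes, 1 point a gene. Filled and named points had an unadjusted p under 0.05 (6 to the right of 0 and 7 to the left), and no point passed after adjustment over all probes.

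The genes whose 4 array values, centred on their own mean, ran closest to Tac2 were Npy (distance 0.43 on the log2 scale, over 4 arrays), Tacr3 (0.45), Lama1 (0.65), Kiss1 (0.68) and Ttr (0.71). Those closest to Kiss1 were Creb3l2 (0.64), Elmo1 (0.66), Npy (0.67), Tac2 (0.68) and Crem (0.71). With 4 arrays the measure mostly reads the difference between the groups.

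The calls also depended on the model of the spread. With a spread that follows brightness (eBayes with a trend) Kiss1, Tac2, Tacr3 and Nr5a2 passed at unchanged differences (limma adjusted p = 0.00288, 0.00288, 0.00412 and 0.00412). The highest adjusted p over the alternatives was 0.743 for each of these 4 genes, reached without virus-injected replicate 2. Pdyn, Npr3, Nhlh2 and Inhbb passed under none of the settings tried (lowest adjusted p 0.104).

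**Figure D5:**
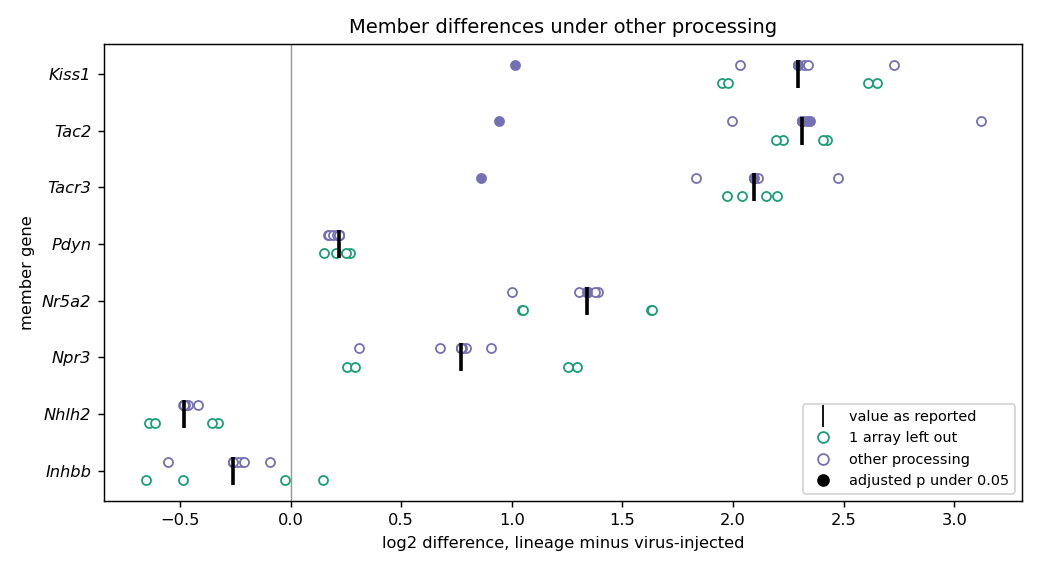
Log2 difference of each member (horizontal axis) as reported (black bar), with 1 array left out (green) and under other processing (purple); filled points passed an adjusted p under 0.05. Kiss1, Tac2 and Tacr3 keep their direction between 0.86 and 3.12, and Inhbb alone crosses 0.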

How the data were processed

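Ribosome-bound RNA of 4 samples in 2 groups of 2 was read on 4 Illumina MouseRef-8 v2 arrays of 1 beadchip; group cannot be told apart from position on it. Per the file headers, the deposited table gives each probe a mean intensity with its error and number of beads, and a detection p-value. They came from GenomeStudio, per the submitters' processing notes. A second table of intensities deposited by the authors is a straight line of the first (residuals at most 0.0101) after subtraction of 416 to 440 and scaling to an equal mean (718; medians 134, 126, 122 and 130); it served as an alternative.

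Intensities were processed with neqc of limma 3.58.1 (R 4.3.3): normexp from the detection p-values, offset 16, quantile normalization, log2. Probes detected (p under 0.05) on 2 or more arrays were fitted with lmFit and eBayes without covariates (2 residual degrees of freedom, 4.645 after moderation), with two-sided p-values adjusted by Benjamini-Hochberg over all tested probes. SDs are between a group's 2 arrays, SEs from the moderated fit. The tested probe of highest mean stood for a gene. A bound sets the bright group's mean against the higher of the dim probe and the dimmest detected probe on each dim array. The annotation named 1 gene for 23978 probes and none for 1719, which are not used here. The fit was tested on simulated data.

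Members, lists and the rule for named genes (members with all probes, ligands and receptors of the lists, and up to 3 further genes of each list by size) were chosen with earlier results of these data known. Alternatives were other background corrections, scalings, filters and spread models, the replicate block, and each array left out.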

Additional observations from a re-analysis of the deposited data

How the results depend on the processing

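Of 115 recomputed member differences, 106 kept their direction and side of the threshold, 8 passed it and 1 turned sign. A trend called 232 probes, no background correction 45, median scaling 5 and the authors' processed values 1, against 0 in the fit as reported; unadjusted p-values under 0.05 numbered 1275 as reported and 784 to 1220 with 1 array left out (784 without virus-injected replicate 2). Kiss1, Tac2, Tacr3 and Nr5a2 passed with a trend at 2.29, 2.31, 2.09 and 1.34. Kiss1, Tac2 and Tacr3 passed without background correction at 1.01, 0.94 and 0.86 (adjusted p 0.0340, 0.0168 and 0.0235), and Tac2 with median scaling at 2.35 (adjusted p = 0.04999); the cause was not tested. The count of members whose lineage values all lay above was 5, with 4 under median scaling, 5 to 6 when 1 array was left out, and 2 of the 3 members detected on all 4 arrays, where fewer genes are tested. A group left with 1 array overlaps the other less easily, and the share of all genes was not counted under these settings. These counts thus do not tell how firm the 5 is. With 1 array left out, Kiss1 ranged from 1.95 to 2.65, Tac2 from 2.19 to 2.43, Tacr3 from 1.97 to 2.201, Pdyn from 0.15 to 0.27, Nr5a2 from 1.047 to 1.64, Nhlh2 from -0.64 to -0.33 and Inhbb from -0.65 to 0.15. Inhbb was at 0.15 without lineage replicate 2, and the authors' processed values gave -0.55.

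With the replicate number as a block, 0 probes passed (1154 at an unadjusted p under 0.05), and Kiss1 stood at an adjusted p of 0.459. Deviations of same-numbered arrays from their group means correlated at -0.024 over the tested probes. The labels state no pairing of arrays, and this value cannot tell whether same-numbered arrays were handled together. Values of Kiss1, Tac2 and Tacr3 in the virus-injected group, and of Inhbb throughout, are limited by the signal over background.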
